A study of Mus musculus with 8 samples.

Results

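Macrophages carry surface molecules that tell a T cell whether to go on with its response or to stop. Here 10 genes for such molecules were followed in control tumor-educated macrophages (TEMs) and in TEMs with reduced *Phgdh*. *Phgdh* codes for the first enzyme of serine synthesis from glucose. The genes were chosen by name, as ligands and receptors known for costimulation and for immune checkpoints in myeloid cells. Earlier results of these data were known when they were chosen. They were *Cd80*, *Cd86*, *Icosl*, *Cd40*, *Cd274*, *Pdcd1lg2*, *Vsir*, *Havcr2*, *Lgals9* and *Cd200r1*, which are 10 of the 18635 genes measured, and all 10 passed the filter on low values that left 13629 genes to test.

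RNA was sequenced from 4 samples of Phgdhfl/fl TEMs, the controls, and 4 samples of Phgdhfl/fl Cx3cr1-Cre TEMs. Both groups carry the floxed *Phgdh* alleles, and they differ in the Cre recombinase driven from *Cx3cr1*, a chemokine receptor gene of the mononuclear phagocyte lineage. The cells were bone marrow-derived macrophages (BMDMs) of mice, left for 24 h in tumor-conditioned medium (TCM) from AE17, a mouse mesothelioma line. The paper writes the genotype at *Cx3cr1* as cre/+ with the Cre and +/+ in the controls. No BMDMs without AE17-TCM and no T cells were part of the comparison. A group with the Cre and unfloxed *Phgdh* was not analysed here. The Cre, the *Cx3cr1* genotype and the loss of *Phgdh* therefore cannot be told apart. The labels do not say whether replicates came from separate mice, and p-values measure the spread between these samples.

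The unit throughout is the normalized count, which is the number of reads on a gene divided by a size factor of the sample. Reads on genes came to between 38219563 and 47027420 per sample. *Phgdh* itself lay between 104.9 and 128.9 normalized counts in the controls and between 14.2 and 35.3 with the Cre, with a log2 difference of -2.15 (limma adjusted p = 5.1e-08). The summed level of 8 macrophage markers was 997877 to 1086470 in the controls and 985067 to 1060150 with the Cre. Most of it came from *Lyz2*, with means of 719688 and 705962, so that the sum says little about the others. Of the 8, 3 fell, beside 20.3% of all genes tested that were called lower. These were *Fcgr1* by 0.40, *Itgam* by 0.19 and *Adgre1* by 0.08 on the log2 scale. In RNA from whole cultures, fewer cells that express a gene and less RNA per cell cannot be told apart.

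A T cell receives its antigen signal through the T cell receptor and a further signal through costimulatory receptors. CD80 and CD86 serve CD28 and its inhibitory rival CTLA-4, ICOSL serves ICOS, and CD40 receives the signal of CD40L on helper T cells and returns it to the macrophage. Checkpoint ligands hold T cells back: PD-L1 (*Cd274*) and PD-L2 (*Pdcd1lg2*) bind PD-1, VISTA (*Vsir*) acts as ligand and receptor, and galectin-9 (*Lgals9*) binds TIM-3 (*Havcr2*). CD200R1 works the other way round, as a receptor on the myeloid cell that restrains it when it meets CD200.

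Promoter sequence was taken from RefSeq on the GRCm38.p6 build, which matched 7 of the 10 genes, all but *Cd86*, *Cd40* and *Cd200r1*. The 4 promoters below are shown because they belong to the gene with the largest called difference, its neighbour of the same receptor, a gene that fell and a B7 ligand that rose. Each runs 5′ to 3′ along the strand of its gene within the 250 bases before the RefSeq start, cut to the longest stretch without an annotated exon, and the capitals mark every match to 1 of the 6 motifs named after them. The stretch of *Cd274* (chr19:29367391-29367437, plus strand) is short because exons of *Plgrkt*, a plasminogen receptor gene, take 185 bases of its window. That of *Pdcd1lg2* is chr19:29410669-29410918 on the plus strand, that of *Lgals9* chr11:78984947-78985174 on the minus strand and that of *Cd80* chr16:38458683-38458932 on the plus strand, inside the gene model of the annotation but in none of its exons.
Cd274: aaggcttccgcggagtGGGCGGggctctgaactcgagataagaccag
Pdcd1lg2: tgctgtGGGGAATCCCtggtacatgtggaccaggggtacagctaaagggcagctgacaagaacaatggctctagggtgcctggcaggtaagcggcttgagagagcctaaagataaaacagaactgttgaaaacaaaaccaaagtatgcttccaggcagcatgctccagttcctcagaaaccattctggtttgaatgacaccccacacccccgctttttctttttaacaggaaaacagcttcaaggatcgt
Lgals9: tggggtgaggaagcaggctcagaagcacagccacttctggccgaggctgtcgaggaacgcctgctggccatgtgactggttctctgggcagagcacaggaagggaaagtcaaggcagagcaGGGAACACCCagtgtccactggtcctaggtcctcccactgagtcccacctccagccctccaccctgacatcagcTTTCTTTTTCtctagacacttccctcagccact
Cd80: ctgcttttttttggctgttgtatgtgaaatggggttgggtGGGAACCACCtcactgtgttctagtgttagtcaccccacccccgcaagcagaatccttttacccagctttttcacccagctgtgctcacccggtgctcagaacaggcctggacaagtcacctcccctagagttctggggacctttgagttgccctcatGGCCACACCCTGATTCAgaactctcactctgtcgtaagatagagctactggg

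The motifs were searched on both strands in the whole 250 bases of all 32851 RefSeq promoters. They were the interferon gamma element GAS (TTCNNNGAA, in 7.02% of promoters), the interferon-stimulated response element ISRE (GAAA and GAAA with any 2 bases between them, 2.98%), a loose NF-kappaB site (GGG and CC with any 5 bases between them, 45.8%), AP-1 (TGANTCA, 6.75%), the GC box (GGGCGG, 32.7%) and the E-box (CACGTG, 6.02%). *Cd274* held a GC box from base -31, counted from the base before the start as -1, and *Pdcd1lg2* held a NF-kappaB match from base -244. *Lgals9* was the only matched gene of the 7 with an ISRE match, from base -55, beside a NF-kappaB match from base -129. *Cd80* held NF-kappaB matches from bases -210 and -52 and, directly after the latter, an AP-1 match from base -42. Of the promoters not printed, *Icosl* held 2 NF-kappaB matches and a GC box, *Vsir* held 2 GC boxes and *Havcr2* an AP-1 match from base -200. No GAS or E-box match lay in any of the 7 windows. These are matches of letters in a short window and no factor was measured at them.

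Of the 10 genes, 6 rose, 2 fell and 2 did not pass the test in Phgdhfl/fl Cx3cr1-Cre TEMs. The comparison was limma on log2(normalized count + 1) with Benjamini-Hochberg adjustment over all 13629 genes, in which 20.8% of genes were called higher, 20.3% lower and 41% in either direction. For 9 of the 10 genes all values of a group lay on 1 side of the other group's values, against 36.7% of all genes tested. The median log2 difference was 0.23 over the 10 genes and -0.0018 over all genes tested. For groups of 4 and 4 that do not overlap, the exact two-sided permutation test gives p = 0.0286, the smallest that 70 labelings allow, and that p applies to each of the 9 genes.

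**Figure D1:**
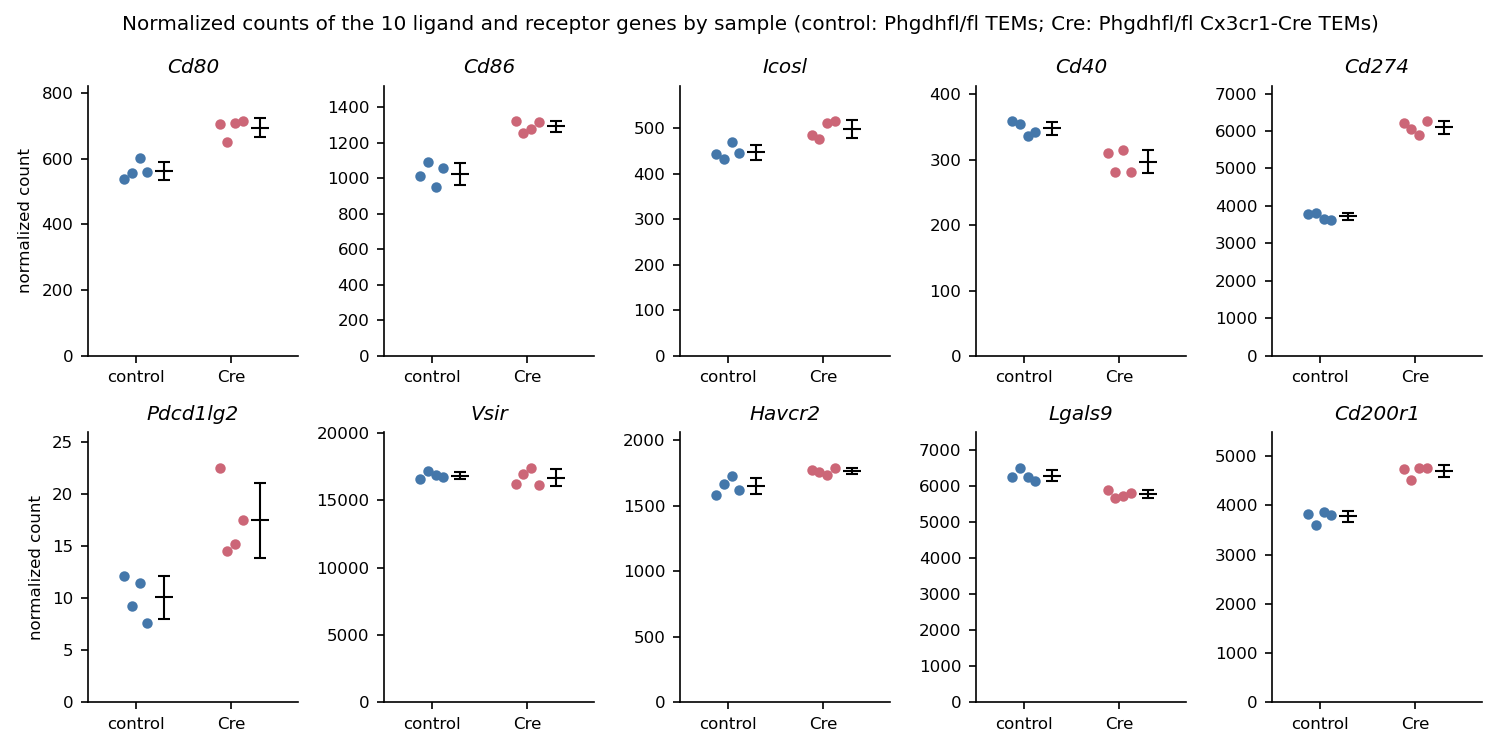
Normalized counts of the 10 genes in each of the 8 samples, a panel per gene with its own linear axis from 0, blue points for Phgdhfl/fl TEMs and red for Phgdhfl/fl Cx3cr1-Cre TEMs, and bars for the mean ± SD (n = 4). The groups overlap only for *Vsir*, where values of 16183 to 17433 with the Cre span those of the controls, 16620 to 17188. The highest control and the lowest sample with the Cre lie close for *Havcr2* (1725 and 1733) and *Icosl* (469 and 477).

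Both ligands of CD28 and CTLA-4 rose, *Cd86* to 1.26 times and *Cd80* to 1.23 times the control mean. *Cd86* (ENSMUSG00000022901, chromosome 16, 36603869 to 36666081, minus strand) is the B7 ligand that antigen-presenting cells hold ready before activation. It had 1011, 1090, 949 and 1057 normalized counts in the 4 control samples and 1322, 1257, 1280 and 1318 in the 4 samples with the Cre. Every sample with the Cre lay above every control, and the mean went from 1027 ± 61.1 to 1294 ± 31.0 (SD, n = 4 each), a ratio of 1.26. The log2 difference was 0.34 (SE 0.04, limma adjusted p = 1.9e-06).

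*Cd80* (ENSMUSG00000075122, chromosome 16, 38455561 to 38496335, plus strand), the B7 ligand that is more strongly induced on activation, had 538, 555, 603 and 560 normalized counts in the controls and 704, 651, 710 and 714 with the Cre. The lowest sample with the Cre, replicate 2, stood below its 3 fellows and above all controls. The mean was 564 ± 27.4 against 695 ± 29.6 (SD, n = 4 each), a ratio of 1.23, and the log2 difference was 0.30 (SE 0.05, limma adjusted p = 6.4e-05). The log2 ratio of *Cd86* to *Cd80* within a sample was 0.86 ± 0.14 in the controls and 0.90 ± 0.04 with the Cre (SD, n = 4). The 2 ratios differed by 0.04 (exact permutation p = 0.857, adjusted over 3 pairs 0.943), which does not show that the 2 genes changed alike.

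The gene of the ICOS ligand rose to 1.11 times the control mean. *Icosl* (ENSMUSG00000000732, chromosome 10, 78069302 to 78083913, plus strand) supports follicular helper and effector T cells through ICOS. Its normalized counts were 442, 431, 469 and 445 in the controls and 485, 477, 512 and 515 with the Cre. The highest control and the lowest sample with the Cre were 469 and 477, so that the groups stood apart by little. Means of 447 ± 16.3 and 497 ± 19.3 (SD, n = 4 each) gave a log2 difference of 0.16 (SE 0.05, limma adjusted p = 0.0269). This call was lost with DESeq2 (adjusted p = 0.0576) and in limma without control replicate 2 (0.0679), control replicate 4 (0.0518), Cre replicate 3 (0.0768) or Cre replicate 4 (0.0837).

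*Cd40*, the receptor through which helper T cells license antigen-presenting cells, moved the other way. *Cd40* (ENSMUSG00000017652, chromosome 2, 165055627 to 165072948, plus strand) had 359, 354, 337 and 343 normalized counts in the controls and 311, 282, 315 and 282 with the Cre. All samples with the Cre lay below all controls, with replicates 2 and 4 the lowest. The mean fell from 348 ± 9.99 to 297 ± 18.0 (SD, n = 4 each), a ratio of 0.853. The log2 difference was -0.23 (SE 0.07, limma adjusted p = 0.00764).

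*Cd274*, the gene of PD-L1, had the largest called difference of the 10. *Cd274* (ENSMUSG00000016496, chromosome 19, 29367455 to 29388095, plus strand) had 3787, 3811, 3660 and 3636 normalized counts in the controls and 6206, 6048, 5885 and 6261 with the Cre. The gap between the groups, from 3811 to 5885, was wider than the spread within either. The mean was 3724 ± 88.3 against 6100.3 ± 169 (SD, n = 4 each), a ratio of 1.64. The log2 difference was 0.71 (SE 0.03, 95% interval 0.66 to 0.77, limma adjusted p = 3.3e-14), and its size lay at percentile 96.6 of all genes tested. An antisense gene, AC119228.1, overlaps *Cd274*, and whether the counting used the strand is not given in the sources used here.

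*Pdcd1lg2*, the gene of PD-L2, was near the limit of detection. *Pdcd1lg2* (ENSMUSG00000016498, chromosome 19, 29410919 to 29471161, plus strand) had between 8 and 20 reads in a sample. Its normalized counts were 12.1, 9.20, 11.4 and 7.63 in the controls and 22.5, 14.5, 15.2 and 17.5 with the Cre. All samples with the Cre were above the controls, but the spread was wide, with means of 10.1 ± 2.04 and 17.5 ± 3.6 (SD, n = 4 each). The log2 difference was 0.74 (SE 0.30, 95% interval 0.12 to 1.35, limma adjusted p = 0.0519) and was not called. It was called with edgeR on the recovered reads (adjusted p = 0.0389), with scaling to total reads (0.0477), without the variance trend (0.0151) and without control replicate 1 (0.0436). The antisense gene *A930007I19Rik*, with a mean of 52.9 normalized counts over all samples, overlaps *Pdcd1lg2* and had a log2 difference of 0.22 that was not called.

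The log2 ratio of *Cd274* to *Pdcd1lg2* within a sample was 8.41 ± 0.26 in the controls and 8.39 ± 0.24 with the Cre (SD, n = 4). The difference of -0.02 did not pass the test (exact permutation p = 0.943, adjusted over 3 pairs 0.943). This does not show that the 2 PD-1 ligands changed alike.

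**Figure D2:**
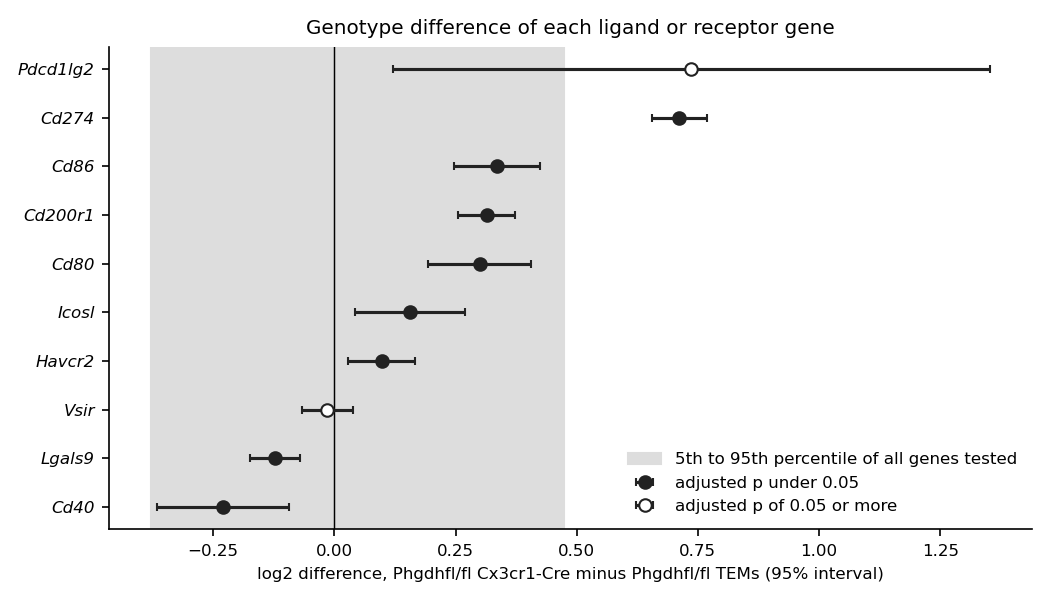
Log2 difference of each of the 10 genes, Phgdhfl/fl Cx3cr1-Cre minus Phgdhfl/fl TEMs (n = 4 each), with the 95% interval of limma as the bar, filled points for an adjusted p under 0.05 and open points for the rest. The grey band holds the 5th to 95th percentile of all 13629 genes tested, -0.38 to 0.47, and *Cd274* at 0.71 lies outside it with its whole interval while that of *Pdcd1lg2* runs from 0.12 to 1.35.

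The VISTA gene showed no difference past the spread between samples. *Vsir* (ENSMUSG00000020101, chromosome 10, 60346851 to 60372684, plus strand) had 16620, 17188, 16882 and 16714 normalized counts in the controls and 16193, 16965, 17433 and 16183 with the Cre. The lowest and the highest of the 8 values both came from samples with the Cre. Means of 16851 ± 249.8 and 16694 ± 614 (SD, n = 4 each) gave a log2 difference of -0.01 (SE 0.02, 95% interval -0.07 to 0.04, limma adjusted p = 0.687), and the exact permutation p was 0.657. *Cdh23*, a cadherin gene on the opposite strand that overlaps *Vsir*, had a mean of 5.28 normalized counts.

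The receptor TIM-3 and its ligand galectin-9 moved in opposite directions. *Havcr2* (ENSMUSG00000020399, chromosome 11, 46454935 to 46481255, plus strand) had 1581, 1664, 1725 and 1620 normalized counts in the controls and 1770, 1756, 1733 and 1789 with the Cre. The highest control, 1725, came close to the lowest sample with the Cre, 1733. Means of 1648 ± 61.8 and 1762 ± 23.2 (SD, n = 4 each) gave a log2 difference of 0.10 (SE 0.03, limma adjusted p = 0.0245). The call was lost without control replicate 1 (adjusted p = 0.0617), control replicate 4 (0.0635), Cre replicate 1 (0.0523) or Cre replicate 4 (0.0689).

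*Lgals9* (ENSMUSG00000001123, chromosome 11, 78962974 to 78984946, minus strand), which codes for a secreted lectin, had 6248, 6504, 6248 and 6130 normalized counts in the controls and 5895, 5655, 5727 and 5815 with the Cre. The controls were all above the samples with the Cre. The mean fell from 6283 ± 158 to 5773 ± 104 (SD, n = 4 each), with a log2 difference of -0.12 (SE 0.02, limma adjusted p = 0.000462). The log2 ratio of *Lgals9* to *Havcr2* within a sample was 1.93 ± 0.06 in the controls, from 1.86 to 1.98, and 1.71 ± 0.02 with the Cre, from 1.69 to 1.74 (SD, n = 4). The difference was -0.22 and the ranges did not overlap (exact permutation p = 0.0286), but adjusted over the 3 pairs the p was 0.0857, which is the smallest the adjustment can give when only 1 of the 3 pairs reaches it.

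*Cd200r1*, the inhibitory receptor for CD200, rose. *Cd200r1* (ENSMUSG00000022667, chromosome 16, 44765736 to 44794978, plus strand) had 3832, 3610, 3870 and 3801 normalized counts in the controls and 4741, 4524, 4761 and 4765 with the Cre. The lowest sample with the Cre, replicate 2, was still well above the highest control. The mean was 3778 ± 116 against 4698 ± 116 (SD, n = 4 each), a ratio of 1.24 and a log2 difference of 0.31 (SE 0.03, limma adjusted p = 1.4e-08). Of the 75-base stretches in its transcripts, 0.401% were also found in *Cd200r4*, so that few reads could be split between the receptor and its paralog.

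The order of the levels of the 10 genes was read per exon length, as a description with no test. FPKM, the fragments per kilobase of exon scaled to the reads of the sample and computed here from the recovered reads and the annotated exons, was highest for *Vsir*, at 76.6 to 79.2 in the controls, and next for *Lgals9*, at 66.1 to 70.3. *Cd200r1* (24.9 to 26.6) and *Cd274* (23.1 to 24.3) followed in the controls, in that order and without overlap. *Havcr2* had 13.4 to 14.6, *Cd86* 5.97 to 6.88 and *Cd80* 3.36 to 3.75 FPKM in the controls. *Cd40* (2.28 to 2.44) and *Icosl* (2.15 to 2.34) were the only neighbours in the order whose control samples overlapped, and *Pdcd1lg2* came last at 0.0897 to 0.142.

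With the Cre the order of FPKM changed at 2 places. *Cd274* at 37.9 to 40.3 lay above *Cd200r1* at 31.6 to 33.2, and *Icosl* at 2.41 to 2.60 lay above *Cd40* at 1.93 to 2.16. No neighbours in the order overlapped among the samples with the Cre. The PD-1 ligands differed in level by far more than the genotypes did, with a mean FPKM of 39.3 for *Cd274* and 0.207 for *Pdcd1lg2* with the Cre. The coefficient of variation of the normalized counts in the controls ran from 1.48% for *Vsir* to 20.2% for *Pdcd1lg2*.

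**Figure D3:**
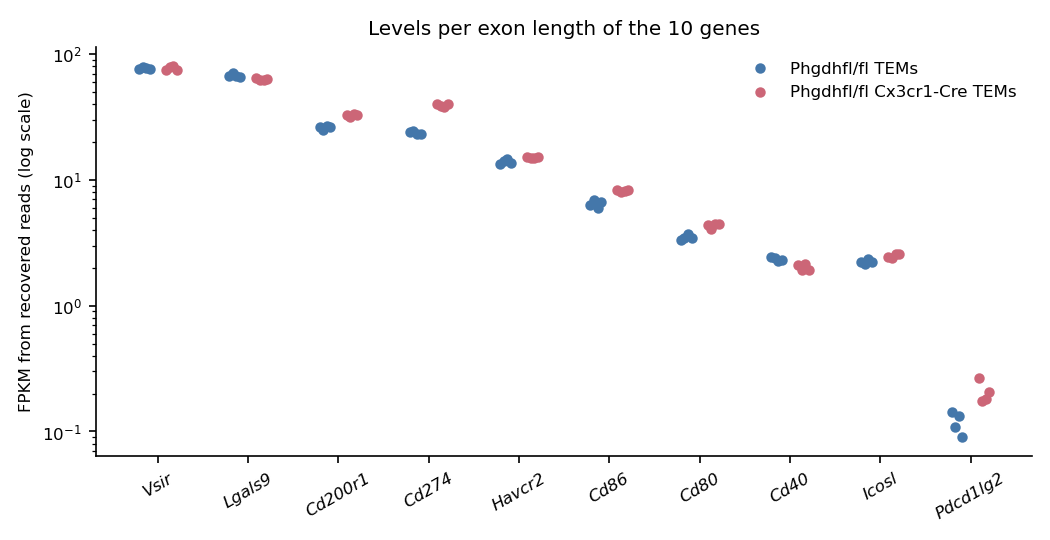
FPKM of the 10 genes on a log axis, from the most to the least abundant in the controls, with a point per sample, blue for Phgdhfl/fl TEMs and red for Phgdhfl/fl Cx3cr1-Cre TEMs (n = 4 each). *Vsir* stands near 77.6 in both groups and *Pdcd1lg2* below 0.27 in every sample, and *Cd274* passes *Cd200r1* only in the samples with the Cre.

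The 10 genes lie on 5 chromosomes, and neighbours within 250 kb were read beside them. *Cd274* and *Pdcd1lg2* are adjacent, 22.8 kb apart. Of the 8 tested neighbours of *Cd274*, 4 rose by about a log2 difference of 0.2. These were *Plgrkt* (0.22), which lies 0.065 kb from *Cd274*, the kinase gene *Jak2* (0.20), *Ric1* (0.22) and *Insl6* (0.19). *Rcl1* at -0.22 and *Ermp1* at -0.11 fell, so that none of the called neighbours rose as far as *Cd274* with 0.71.

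Of the 7 tested neighbours of *Cd86*, 3 rose and *Stfa3* fell by 0.63 on the log2 scale. *Slc15a2*, a peptide transporter gene 84.1 kb away, had 1.18 ± 0.88 normalized counts in the controls and 107.5 ± 5.71 with the Cre (SD, n = 4 each), and its log2 difference of 5.75 depends on the pseudocount. *Gm49599* rose by 1.52 and *Golgb1* by 0.46 on the log2 scale, beside 0.34 for *Cd86*. *Gm49599* lies within the span of *Golgb1*, so that these are not separate loci. *Cd200r4*, 16.8 kb from *Cd200r1*, rose by 0.60, beside 0.31 for *Cd200r1*.

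Neighbours of the genes that fell were mixed. Of the 14 tested around *Cd40*, 1 rose and 5 fell, with the gelatinase gene *Mmp9*, 99.8 kb away, at -1.36. Of the 4 around *Lgals9*, only *Nos2*, the inducible nitric oxide synthase gene 2.72 kb away, was called, and it rose by 0.72. The share of genes called on the chromosomes of the 10 genes was between 41.6% (chromosome 11) and 44.0% (chromosome 19), close to the 41% over all genes tested. The part of flanking DNA or of neighbours in the differences of the 10 genes was not tested.

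**Figure D4:**
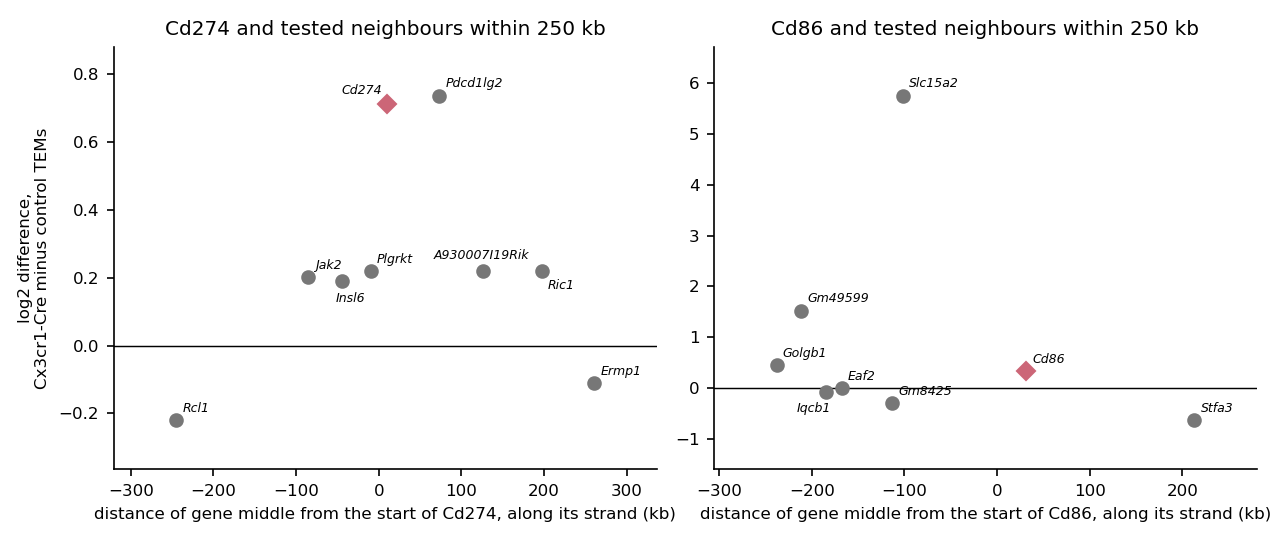
Log2 difference, Phgdhfl/fl Cx3cr1-Cre minus Phgdhfl/fl TEMs, of *Cd274* and *Cd86* (red diamonds) and of their tested neighbours (grey points) against the distance in kb of the middle of each gene from the start of *Cd274* or *Cd86*, with 0 as a line. *Cd274* and *Pdcd1lg2* stand above a row of neighbours near 0.2, and *Slc15a2* at 5.75 stands far above *Cd86* at 0.34.

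Genes of the pathways around the 10 were read from 8 lists with 92 genes in all, of which 83 were in the table and 77 were tested. Of the 77, 34 rose, 18 fell and 25 did not pass the test, beside 20.8% and 20.3% over all genes tested. Their median log2 difference was 0.045.

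Of 12 further B7 and butyrophilin relatives and the T cell receptors they serve, 6 were in the table, and *Cd276* and *Cd28*, the 2 that passed the filter, both rose. *Cd28*, the receptor for CD80 and CD86, had 1617 ± 25.3 normalized counts in the controls and 2300.1 ± 103 with the Cre (SD, n = 4 each), with a log2 difference of 0.51 (limma adjusted p = 1.7e-10). *Cd276*, which codes for B7-H3, went from 588 ± 21.1 to 712 ± 51.6 (SD, n = 4 each), with a log2 difference of 0.27. The T cell markers *Cd4*, *Cd2* and *Lck* together had only 39.1 to 48.6 normalized counts in the controls and 52.9 to 68.1 with the Cre, against 1594 or more for *Cd28* in every sample. The other T cell markers listed, *Cd3e*, *Cd3d*, *Cd3g*, *Cd8a* and *Trac*, were not among the 18635 genes with values.

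Of the 6 tested TNF superfamily genes of costimulation, 4 rose, 1 fell and 1 did not pass, with a median log2 difference of 0.56. *Tnfsf15*, the gene of TL1A, had 68.5 ± 13.0 normalized counts in the controls and 151 ± 24.3 with the Cre (SD, n = 4 each), with a log2 difference of 1.13. *Tnfsf4*, the gene of OX40 ligand, went from 186 to 313 and *Tnfsf8*, the gene of CD30 ligand, from 145 to 239, with log2 differences of 0.75 and 0.74. *Tnfsf9*, the gene of 4-1BB ligand, fell from 583 to 522, by 0.15 on the log2 scale (limma adjusted p = 0.0363).

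The list of 18 other inhibitory or costimulatory ligands was divided, with 7 higher, 3 lower and 8 not past the test, and a median log2 difference of 0.014. *Cd200*, the ligand of CD200R1, rose, with 91.0 ± 14.2 normalized counts in the controls and 157 ± 14.9 with the Cre (SD, n = 4 each), with a log2 difference of 0.79 (limma adjusted p = 1.8e-05). *Fgl2*, which codes for a prothrombinase that also acts on T cells in soluble form, went from 3771 to 5563, with a log2 difference of 0.56. *H2-Q7*, of the nonclassical class I family, went from 1941 to 2908, with a log2 difference of 0.58, and its reads can be split with close paralogs. The galectin-1 gene *Lgals1* fell by 0.25, the ligand of SIRP-alpha *Cd47* by 0.22 and *Cd48* by 0.18 on the log2 scale.

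In the CD200 receptor family and its adaptors, 1 receptor rose and 3 signalling partners fell among the 4 genes tested. *Cd200r4*, an activating relative, rose, with 1630 ± 101 normalized counts in the controls and 2470.1 ± 44.9 with the Cre (SD, n = 4 each), with a log2 difference of 0.60. The partners of CD200R1 that fell were *Dok2*, with 2569 ± 82.6 and 1778 ± 65.1 normalized counts (SD, n = 4 each; log2 difference -0.53, limma adjusted p = 7.5e-11), *Rasa1* at -0.25 and *Dok1* at -0.09. *Cd200r2* and *Cd200r3* had means under 6 normalized counts and were not tested.

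In CD40 signalling, 10 of 17 genes rose and 7 did not pass the test, while *Cd40* itself was lower. *Traf1*, an adaptor of TNF receptors that NF-kappaB induces, went from 1566 ± 44.1 to 2166 ± 98.3 normalized counts (SD, n = 4 each), with a log2 difference of 0.47. *Traf3*, which restrains the noncanonical NF-kappaB pathway, rose by 0.27 and *Cflar*, which codes for the caspase-8 inhibitor c-FLIP, by 0.24 on the log2 scale. The median of the 17 genes was 0.12.

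The lists of genes that act on PD-L1 went in both directions while *Cd274* rose. In the interferon gamma and JAK-STAT list, 3 of 14 genes rose, 6 fell and 5 did not pass, with a median log2 difference of -0.082. *Irf8* fell by 0.20 and *Stat2* by 0.17 on the log2 scale (limma adjusted p = 8.4e-07 and 8.7e-06). The 3 that rose were *Socs3* (0.47), a feedback inhibitor, *Jak2* (0.20), a neighbour of *Cd274*, and *Jak1* (0.12).

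In the list of genes that act on PD-L1 protein, 2 of 8 rose, 4 fell and 2 did not pass, with a median log2 difference of -0.059. *Spop*, *Cop1* and *Stub1*, which code for parts of ubiquitin ligases, fell by 0.24, 0.21 and 0.18 on the log2 scale. *Gsk3b*, the kinase that marks PD-L1 for degradation, rose by 0.18 and *Cmtm4*, a stabilizer, by 0.16. Protein was not measured in these libraries. In macrophages from mouse tumors, the paper reported lower PD-L1 with the Cre, which is protein in another setting than these cultures.

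The IL-4 and STAT6 axis, known as an inducer of *Pdcd1lg2*, had 5 of 8 genes higher, 1 lower and 2 not past the test, with a median log2 difference of 0.13. *Irf4* rose, with 35.2 ± 5.48 normalized counts in the controls and 55.1 ± 4.83 with the Cre (SD, n = 4 each; log2 difference 0.64, limma adjusted p = 0.00451). *Il13ra1* rose by 0.42 and *Tyk2* by 0.14 on the log2 scale, and *Stat6* fell by 0.06.

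**Figure D5:**
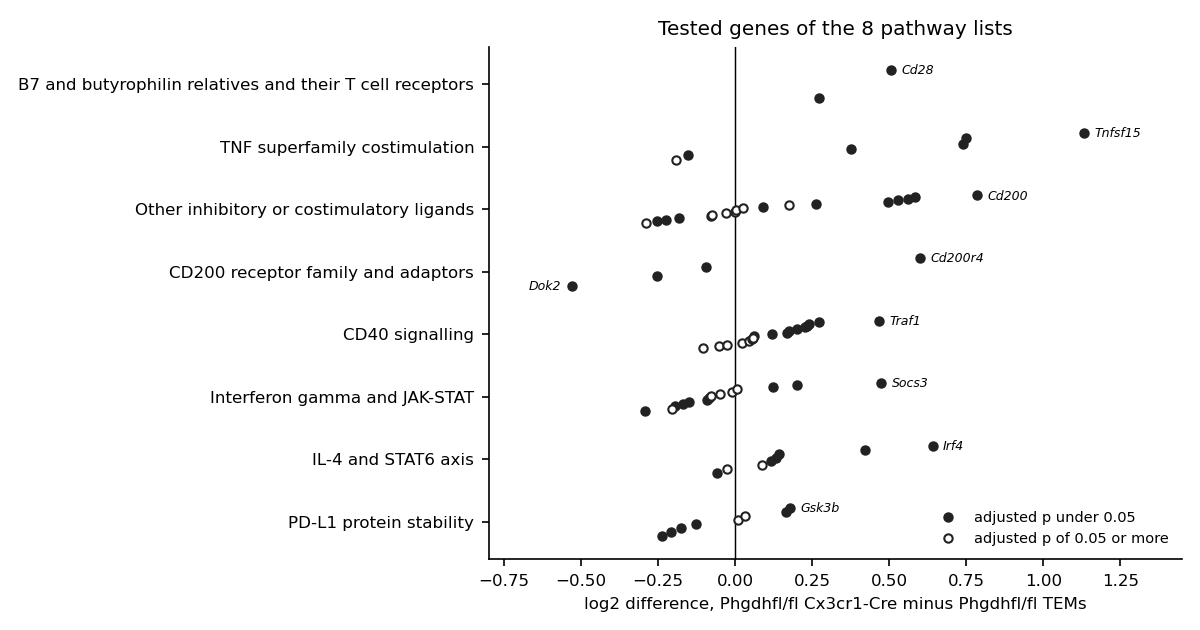
Log2 difference, Phgdhfl/fl Cx3cr1-Cre minus Phgdhfl/fl TEMs, of the 77 tested genes of the 8 pathway lists, a point per gene, filled for an adjusted p under 0.05 and open for the rest, with the highest gene of each list and the lowest of all labelled. The points run from *Dok2* at -0.53 to *Tnfsf15* at 1.13, and the filled points of the CD40 signalling list reach 0.47 at *Traf1*.

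Markers of other cells that carry these ligands were low or moved with the genotype. For dendritic cells, which express *Cd80*, *Cd86*, *Cd40* and *Pdcd1lg2*, 6 of 8 markers were in the table and together had 100 to 133 normalized counts in the controls and 124 to 160 with the Cre, and *Dpp4*, with 12.4 ± 4.2 and 25.0 ± 5.31 (SD, n = 4 each), was the only one called. For B cells the 2 markers in the table summed to 197 to 253 in the controls and 131 to 167 with the Cre, nearly all from *Cd79b*, which fell by 0.63 on the log2 scale. For granulocytes *S100a8* alone was in the table, with 467 to 575 and 576 to 631. For fibroblasts or tumor cells the sum was 4978 to 5318 and 5338 to 5724, of which *Pdpn*, also made by macrophages, was nearly all, and it rose by 0.11. *Flt3* and *Clec9a* of dendritic cells and *Ms4a1* of B cells had means of at most 3.08 in either group, no marker in the table was at 0 in all samples, and the part of such cells in the differences of the 10 genes was not tested.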

How the data were processed

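RNA from 4 samples of Phgdhfl/fl TEMs and 4 of Phgdhfl/fl Cx3cr1-Cre TEMs was sequenced by the authors from directional libraries. The submitters' processing notes name mm10, TopHat2, HTSeq 0.6 and DESeq2, and the strand setting of the counting is not given in the sources used here. Per gene and sample the authors deposited a signal, the read count over the size factor of the sample (0.889 to 1.09). Dividing it out gave whole reads for 100% of the 144353 values above 0, within 0.01 read. The deposited table also holds the authors' mean, fold change, standard error, test score and p-values, and none of these were used. Samples were grouped by the labels, which name no batch.

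The main test was limma 3.58.1 in R 4.3.3 (eBayes with trend, two-sided, no covariate) on log2(normalized count + 1) over genes with a mean of at least 10, with Benjamini-Hochberg adjustment over all genes tested and a threshold of 0.05. On this scale fold changes of genes with few reads are understated. The exact two-sided permutation test over 70 labelings was used for single genes and for the 3 within-sample ratios. Positions, exon lengths and overlaps came from GENCODE M21, whose build is that of mm10. Stretches of 75 bases were compared between all annotated transcripts. As alternatives, the pseudocount was set to 0.1, the filter was dropped or raised to 100, and the fit was repeated with quantile normalization, scaling to total reads, edgeR 4.0.16 and DESeq2 1.42.0 on the recovered reads, eBayes without trend, a replicate block, and leaving out each sample. For the ratios they were pseudocounts of 0.1 and 5, the block, and leaving out each sample. On simulated counts, limma, edgeR and DESeq2 each called all 200 changed genes among 13637 in the right direction, with 19, 15 and 11 unchanged genes called. The changed genes had means of at least 100, and all genes were given the same spread. Their differences were larger than those of all the 10 genes but *Cd274* and *Pdcd1lg2*. The simulation therefore gives no sensitivity for small differences or for genes with few reads.

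All 10 genes are named whatever their values, with *Phgdh*, and from each pathway list up to 3 of the highest and 3 of the lowest called genes whose groups do not overlap. For 1 list gene no single result is given here, though the counts include it. Neighbouring genes were picked after their values were seen. The 10 genes, the lists and the tests were chosen with earlier results of these data known.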

Additional observations from a re-analysis of the deposited data

Results flagged for a closer look

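In each group of 4 samples, the gap between the most extreme sample and its nearest fellow was compared with the range of the group, and 2 values stood out past the 95% critical value of Dixon's test for 4 samples. *Cd80* in replicate 2 of Phgdhfl/fl Cx3cr1-Cre TEMs had 650.6 normalized counts while the other 3 samples had 704.3 to 713.9, a gap of 0.850 of the range. *Cd200r1* in the same replicate had 4524 normalized counts against 4741 to 4765 in the other 3, a gap of 0.904 of the range. Both values lie above all controls, and both genes were called with this sample left out. Of groups with no real outlier about 1 in 20 is marked in this way, and 28 groups were examined.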

How the results depend on the processing

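Under 17 alternatives the differences of the 10 genes were computed 169 times, and 152 kept their direction and their side of the threshold. *Cd80*, *Cd86*, *Cd40*, *Cd274*, *Lgals9* and *Cd200r1* kept both in all 17, with *Cd274* between 0.70 and 0.73. The calls of *Icosl* (adjusted p 0.0156 to 0.0837) and *Havcr2* (0.00956 to 0.0689) were lost in 5 and 4 alternatives and that of *Pdcd1lg2* (0.0151 to 0.156) was gained in 4, as given with each gene, and the cause was not tested. *Pdcd1lg2* was not tested under the filter of 100. *Vsir* turned to 0.042 with quantile normalization, to 0.00090 with scaling to total reads, and lay between -0.035 and 0.00052 when a sample was left out, never past the threshold. Between 4 and 7 of the 10 genes were called higher and 2 lower in each alternative. Of the pathway genes 45 to 53 were called (52 in the main comparison), and of all genes 4930 to 5944 (5594). Scaling to total reads moved the median of all genes from -0.0018 to 0.013.

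The difference in the ratio of *Cd274* to *Pdcd1lg2* turned to 0.14 with a pseudocount of 5 and ran from -0.10 to 0.090 when a sample was left out. That of *Cd86* to *Cd80* ran from -0.034 to 0.072, and that of *Lgals9* to *Havcr2* from -0.24 to -0.20. None of these passed the adjusted threshold.

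With the replicate number as a block, 6 of the 10 genes were called higher and 2 lower, 53 pathway genes and 5597 genes overall. The block cannot move the difference in a ratio, because every number has 1 sample in each group. The sign-flip p of *Lgals9* to *Havcr2*, adjusted over the 3 pairs, was 0.375, beside 0.0857 in the permutation test without the block. The smallest p that the sign-flip test allows is 0.125. Same-numbered samples had correlations of 0.0628, 0.0977, 0.126 and 0.0776 between their deviations. Control replicates 2, 3 and 4 each correlated best with the Cre sample of their own number, and control replicate 1 with Cre replicate 4 (0.135). For control replicate 4 the margin was small, 0.0776 against 0.0757 with Cre replicate 1. Seen from the Cre samples, replicates 2 and 3 correlated best with their own number. Cre replicate 1 correlated best with control replicate 4, and Cre replicate 4 with control replicate 1. Whether a shared number marks a shared origin was not tested. Depth limits *Pdcd1lg2* most, with 8 to 20 reads a sample.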
